A study of Homo sapiens with 4 samples.

Results

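Keratins are the intermediate filament proteins of epithelial cells. Each filament is built from pairs of 1 acidic type I and 1 basic type II keratin, so the genes of both types are usually expressed together in matched sets. KRT8 and KRT18 form the pair of simple, single-layered epithelia, joined there by KRT7 and KRT19, and embryonic kidney lines are known to make KRT8 and KRT18. KRT17 is a type I keratin of basal cells, skin appendages and injured or activated epidermis, and is not a simple epithelial keratin. The genes stand in 2 clusters, type I on chromosome 17 and type II on chromosome 12, with the exception of KRT18, a type I gene that lies beside KRT8 on chromosome 12.

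10 keratin genes were followed, of 55 protein-coding keratin genes and 58174 genes in the deposited tables. They were chosen by symbol, by matching the deposited gene identifiers to GENCODE release 29 on the GRCh38 build. The type I genes were KRT17, KRT18, KRT19, KRT10 and KRT15, and the type II genes KRT8, KRT7, KRT80, KRT81 and KRT86. KRT17 had been singled out for its difference between the groups compared here, so the differences of these 10 genes are given as a description. Their calls in the fit over all genes are counted once, beside the share of all tested genes called, and nothing is read from them. Only KRT8, KRT18, KRT7 and KRT19 belong to simple epithelium, and KRT7 and KRT19 were near 0 in every library. The set is therefore called by its gene names below.

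Total RNA of 293FT cells, a transformed line of human embryonic kidney origin that makes SV40 large T antigen, was sequenced after removal of ribosomal RNA. 2 libraries had the genotype NIPBLwt and 2 the genotype NIPBLmut, and no other treatment was named for either group. NIPBL loads cohesin onto chromosomes, and the study concerns Cornelia de Lange syndrome and CHOPS syndrome. The labels state neither the kind of mutation nor whether a genotype is 1 clone or several. They also do not say that replicates came from separate cultures, so a p-value covers only the spread among these 4 libraries, and that spread may be technical.

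Libraries held between 31545743 and 33161120 expected counts, the estimated reads per gene. The wild-type pair lay farther apart than the mutant pair, with a chi-square per gene of 44.6 against 4. NIPBL itself had 41.8 and 44.5 CPM (counts relative to the scaled library size) in the wild-type libraries and 61.0 and 62.0 CPM in the mutant ones. Since the kind of mutation is not known, this level does not check the labels. Of 18984 tested genes 5.81% were called at an edgeR adjusted p under 0.05, 3.71% as higher and 2.1% as lower in mutant. Higher genes made up 63.8% of the calls, and 80.2% with total count scaling, 87.3% with limma on log2(TPM + 1) and 51.8% with DESeq2. A list of 11 genes linked to the line was read as a check of the cell type. The filament genes VIM and NEFL and the fetal gene LIN28B each exceeded 10 TPM in all 4 libraries, while the kidney factors WT1 and PAX2 had 0.88 and 1.19 TPM and 0.28 and 0.13 TPM in wild type. The list summed to 313 and 323 TPM (a level per transcript length, scaled to the same total in each library) in wild type and 239 and 228 TPM in mutant libraries, with the largest part from VIM (182 and 192 TPM in wild type, 144 and 139 TPM in mutant). Of these 11, 3 were called lower and none higher, while at an unadjusted p under 0.05 there were 5 lower and 3 higher, and DESeq2 called the same numbers. The 3 higher ones, not called by edgeR, were INA (1.42, edgeR adjusted p = 0.0586), CD24 (1.09, 0.066) and NES (0.66, 0.0742). These genes, other than LIN28B, were named after their values were seen. NEFM, a neurofilament subunit, fell by 5.98 on the log2 scale (SE 0.24, edgeR adjusted p = 0.0086), and LIN28B, a fetal RNA-binding protein, fell by 1.20 (adjusted p = 0.0369, and 0.0652 without mutant replicate 2). Vimentin (VIM), the filament protein of mesenchymal cells, was named after its values were seen. It fell by 0.60 (edgeR adjusted p = 0.0467), a call lost when mutant replicate 1 (0.386) or 2 (0.5) was left out.

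KRT17 has close relatives, so the places where a read can tell them apart were counted first. KRT14 and KRT16 are type I keratins of stratified epithelium that lie in the same cluster, and KRT17P1 is a pseudogene copy elsewhere on chromosome 17. The coding sequence of KRT17's full-length transcript (GENCODE 29) was cut into overlapping windows of 66 bases, and each was set against its best ungapped match in each relative. The length of 66 bases is 1 more than the 65 bases by which the deposited effective lengths fall below the deposited lengths. Over the 1231 windows along the 1296 coding bases, the median number of differences was 7 from KRT14, 14 from KRT16 and 3 from each of the pseudogene copies KRT17P1, KRT17P2 and KRT17P3. No window was identical to KRT14 or KRT16, while 2.27% were identical to KRT17P1, 2.27% to the copy KRT17P2 and 4.55% to the copy KRT17P3. Over every transcript in its row, 4.25% of KRT17's windows were shared with any other annotated gene.

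KRT17 (ENSG00000128422, chromosome 17, 41619441 to 41624842, minus strand) was nearly silent in wild type and clearly expressed in the mutant libraries. It had 17 and 10 expected counts in wild-type replicates 1 and 2, and 489.9 and 530 in mutant replicates 1 and 2. Per length these were 0.29 and 0.18 TPM against 8.65 and 9.13 TPM. Both mutant libraries lay far above both wild-type libraries, and the mutant pair was close while the wild-type pair, at low counts, differed. Without wild-type replicate 1 the log2 fold change was 5.44, and without replicate 2 it was 4.75. The mean CPM (± SD, n = 2 each) was 0.441 ± 0.151 for wild type against 14.9 ± 0.515 for mutant, a log2 fold change of 5.06 (SE 0.28) or 33.3-fold. It ranked 40th of 18984 tested genes by log2 fold change and 17114th by level in wild type. The first rank comes from the contrast that singled KRT17 out, so nothing is read from it. KRT17's wild-type counts alone did not meet the low-count filter, so it was tested only through the mutant libraries. All tested coding genes with a wild-type mean below 1 CPM, KRT17 among them, had a median log2 fold change of 1.12. In these bulk libraries, KRT17 in more cells and more KRT17 RNA per cell cannot be told apart.

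Few counts were assigned to the relatives of KRT17. KRT14 had 0 counts in all 4 libraries, and KRT16 had 3 in mutant replicate 1 and 0 in the other 3 libraries. The 8 KRT17 pseudogene rows together held 5 and 1 counts in wild type and 9.8 and 6 in mutant libraries. Adding them to KRT17 gave a log2 fold change of 4.79. The deposited abundance-weighted length of KRT17 was 1524, 1449, 1522 and 1517 bases in wild-type replicates 1 and 2 and mutant replicates 1 and 2, close to the 1517 bases of the full-length coding transcript.

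KRT8 (ENSG00000170421, chromosome 12, 52897187 to 52949954, minus strand), the type II member of the simple epithelial pair, was higher in mutant libraries. It had 1854 and 1826 expected counts in wild type and 3742 and 3612 in mutant, or 28.3 and 26.7 TPM against 60.05 and 56.9 TPM. The groups did not overlap, and both pairs were tight. The mean CPM (± SD, n = 2 each) was 60.4 ± 0.955 for wild type against 107 ± 4.91 for mutant, a log2 fold change of 0.83 (SE 0.11).

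KRT18 (ENSG00000111057, chromosome 12, 52948871 to 52952901, plus strand), the type I partner of KRT8, did not follow it. It had 2615 and 3575 expected counts in wild type and 3023 and 2837 in mutant, or 48.7 and 66.3 TPM against 57.2 and 52.0 TPM. Both mutant libraries lay between the wild-type libraries. The log2 fold change was -0.25 (SE 0.19), and it was 0.02 without wild-type replicate 2 and -0.5 without wild-type replicate 1, so its sign rested on 1 library.

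Set side by side within each library, the ratio of KRT8 to KRT18 in TPM was 0.582 and 0.403 in wild type and 1.05 and 1.1 in mutant. KRT8 was thus below its partner in both wild-type libraries and slightly above it in both mutant libraries. The gene bodies overlap by 1.1 kb on opposite strands. Whether the authors' counting used strand is not known from the labels, and reads in the overlap could be split between both genes if strand was not used.

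KRT8 and KRT18 also have many processed pseudogenes, which are old copies of their mRNA elsewhere in the genome. 50 KRT8 pseudogene rows held 285 and 263 counts in wild type and 322 and 346 in mutant, and 67 KRT18 pseudogene rows held 147 and 134 against 126 and 135. These sums are small beside KRT8 and KRT18 themselves. Adding them to the parents moved the log2 fold change to 0.75 for KRT8 and -0.26 for KRT18. Of the single copies above 1 TPM in any library, KRT8P12 had a log2 fold change of 0.14 (SE 0.29), KRT8P39 0.09 (SE 0.28) and KRT8P46 -0.70 (SE 0.31), none called by edgeR (adjusted p = 0.784, 0.844 and 0.204). Of the 66-base windows, 6.24% in KRT8 and 5.79% in KRT18 were shared with other genes.

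KRT10 (ENSG00000186395, chromosome 17, 40818117 to 40822595, minus strand) is the type I keratin of the upper layers of the epidermis. It had 339 and 384.4 expected counts in wild type and 568 and 622 in mutant, or 13.6 and 15.8 TPM against 24.0 and 25.4 TPM. The groups did not overlap. The mean CPM (± SD, n = 2 each) was 11.9 ± 1.36 for wild type against 17.3 ± 0.752 for mutant, a log2 fold change of 0.54 (SE 0.15). On log2(TPM + 1) the difference was 0.72. None of its windows was shared with another gene in the annotated direction, the only one counted. TMEM99, on the opposite strand, overlaps KRT10 from position 40819106 on. Whether reads there were assigned by strand is not known.

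The KRT10 values came mostly from a short transcript. The deposited row pools a full-length transcript of 2124 bases and a short one of 583 bases, which covers only the gene's 3' end from 40818117 to 40818983. The deposited weighted lengths were 690.1, 671.6, 673.2 and 678.4 bases in wild-type replicates 1 and 2 and mutant replicates 1 and 2. Solved for the mix of these 2 transcripts, they correspond to 6.95%, 5.75%, 5.85% and 6.19% of the full-length transcript. Full-length KRT10 then had 0.944 and 0.906 TPM in wild type and 1.41 and 1.57 TPM in mutant, and the short transcript had 12.6 and 14.9 against 22.6 and 23.8 TPM. The share of the full-length transcript overlapped between the groups, while both transcripts had higher levels in the mutant libraries. The division between transcripts is the authors' estimate from RSEM, and its error is not given in the files.

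Promoter sequence was held for KRT10 and KRT8 among the 10 genes. Both are shown, as no such sequence was held for KRT17 or the other members. These genes lie in different clusters, and both had higher levels in the mutant libraries. Each run is the 250 bases before the RefSeq start, read 5' to 3' on the gene's strand (GRCh38.p14). Capitals mark matches, on either strand, to 4 motifs that do not overlap each other here. The TATA box was searched as TATAAA. The GC box was searched as GGGCGG. The third motif was CCAAT, named for its own letters. The AP-1 site was searched as TGANTCA.
KRT10, chr17:40822615-40822864, minus strand: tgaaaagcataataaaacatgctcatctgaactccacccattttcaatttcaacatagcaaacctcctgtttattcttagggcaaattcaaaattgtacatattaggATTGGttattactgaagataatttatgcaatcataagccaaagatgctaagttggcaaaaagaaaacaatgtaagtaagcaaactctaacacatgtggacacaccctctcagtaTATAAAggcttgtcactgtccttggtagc
KRT8, chr12:52926470-52926719, minus strand: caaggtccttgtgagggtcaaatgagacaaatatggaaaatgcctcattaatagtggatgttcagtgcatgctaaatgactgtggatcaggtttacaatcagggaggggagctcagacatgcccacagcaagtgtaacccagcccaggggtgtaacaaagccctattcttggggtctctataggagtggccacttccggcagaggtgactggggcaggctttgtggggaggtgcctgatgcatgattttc
The KRT10 window held TATAAA beginning 29 bases before the start and CCAAT on the other strand, beginning 143 bases before it. TATAAA was in 10.7% and CCAAT in 32.0% of 35116 windows of the same length. The KRT10 start is that of the full-length transcript, not of the short one that carried most of its estimated level. The KRT8 window held none of the 4 motifs, of which GGGCGG was in 42.6% and TGANTCA in 6.57% of windows. KRT8 is annotated with other starts, such as 52906618, and 52949842 inside KRT18, and the gene-level counts do not say which start was used.

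The other 6 genes were at trace level in all 4 libraries and did not pass the low-count filter. KRT19, the smallest keratin and a partner of KRT8 in ducts, had 0 and 1 expected counts in wild type and 2 and 5 in mutant. KRT7, the type II keratin of glands and ducts, had 1 and 2 against 3 and 2. KRT15, a basal type I keratin, had 1 and 1 against 0 and 1, and KRT80, a type II keratin, had 1 and 0 against 0 and 3. The hair keratins KRT81 and KRT86 had 0 and 0 against 1 and 1.2, and 2 and 0 against 3 and 6.8. At this depth 1 count was worth between 0.0302 and 0.0317 CPM before scaling, so no difference of these 6 genes was detectable. KRT81 and KRT86 are near copies, with 38.6% and 33.1% of their windows shared with other genes, and their few reads cannot be assigned with certainty.

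**Figure D1:**
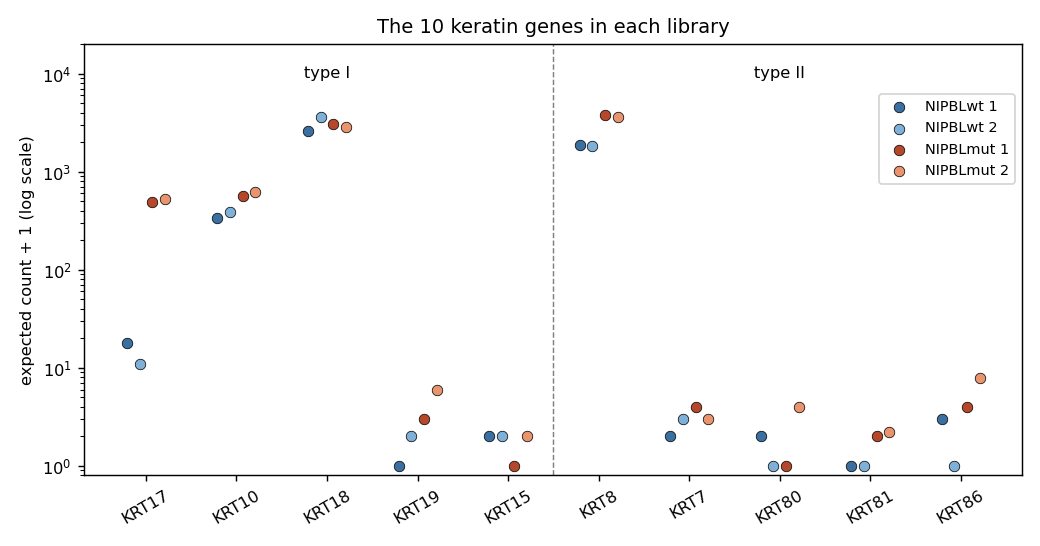
Expected counts plus 1, on a log axis, of the 10 keratin genes in each of the 4 libraries, type I genes on the left and type II genes on the right. Each point is 1 library. KRT17 had 17 and 10 counts in wild type and 489.9 and 530 in mutant libraries, KRT8 and KRT10 had groups that did not overlap, the mutant KRT18 values lay within the wild-type range, and 6 genes stayed below 7 counts.

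Of the 10 genes 4 passed the filter, and edgeR called 2 of them, KRT17 and KRT8, both higher. The share over all tested genes was 3.71% higher. Groups did not overlap for 3 of the 4, all with mutant above. Over all tested genes the groups did not overlap for 63.2%, with mutant above for 32.3% and below for 30.8%. The contrast chose the genes, so nothing is read from these counts. The KRT8 call was lost when either mutant library was left out, where the log2 fold change was 0.78 and 0.87. The order of levels in wild type was KRT18, KRT8, KRT10 and KRT17 in TPM, with no overlap between neighbours. In mutant libraries KRT8 (56.9 and 60.05 TPM) and KRT18 (52.0 and 57.2 TPM) overlapped at the top, followed by KRT10 and then KRT17.

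**Figure D2:**
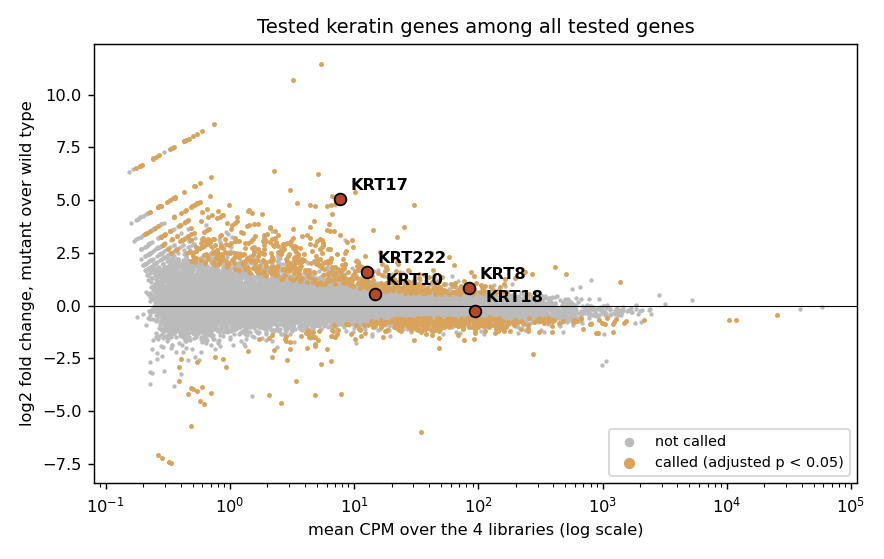
Log2 fold change of mutant over wild type against mean CPM (log axis) for the 18984 tested genes, with the 5 tested keratin genes marked. KRT17 lies at 5.06, KRT222 at 1.58, KRT8 at 0.83, KRT10 at 0.54 and KRT18 at -0.25.

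Besides these genes, 1 more keratin gene passed the filter, KRT222, a type I keratin-like gene at the edge of the chromosome 17 cluster (40654665 to 40665181, minus strand). It had 197.4 and 190.3 expected counts in wild type and 637 and 663 in mutant, or 3.57 and 3.12 TPM against 10.5 and 10.8 TPM. Both mutant libraries were about equally high. KRT222 rose by 1.58 on the log2 scale (SE 0.14, edgeR adjusted p = 0.0184) and was called in each of the alternative fits. Of its windows 33.2% were shared with AC073508.2, an annotated gene on the same strand that overlaps both KRT222 and the neighbouring SMARCE1, and which had 7.8 and 16.9 counts in wild type and 0 and 0 in mutant.

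Summed over the 55 keratin genes, transcripts amounted to 94.6 and 112 TPM in wild type and 161 and 155 TPM in mutant libraries. KRT8 made up 29.9% and 23.8% of this sum in wild type and 37.2% and 36.7% in mutant, while KRT18 went from 51.5% and 59.1% to 35.4% and 33.5%. KRT17 made up 0.31% and 0.16% in wild type and 5.36% and 5.88% in mutant. Type II genes summed to 28.5 and 26.8 TPM in wild type and 60.7 and 57.7 TPM in mutant, nearly all of it KRT8. Type I genes summed to 66.2 and 85.4 TPM in wild type and 101 and 97.6 TPM in mutant. Without the keratin-like KRT222 these type I sums were 62.6 and 82.3 TPM against 90.2 and 86.8 TPM. The ratio of type II to type I, KRT222 included, was 0.43 and 0.314 in wild type and 0.603 and 0.591 in mutant. Type I transcripts thus exceeded type II transcripts in every library. These sums hold the same values as the single genes and are no further evidence.

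**Figure D3:**
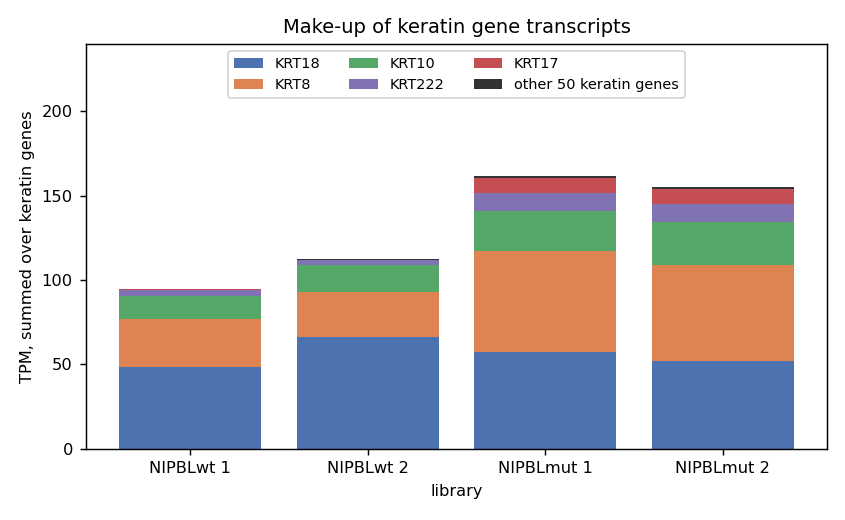
TPM summed over keratin genes in each library, stacked by gene. The sum was 94.6 and 112 TPM in wild type and 161 and 155 TPM in mutant libraries, KRT18 took the largest part in wild type, and KRT17 was visible only in the mutant libraries.

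The remaining 50 keratin genes, 6 of them among the 10 above, did not pass the filter. They held 9 and 6 counts in wild type and 54 and 54 in mutant libraries, and 6 and 5 genes had a count in wild type against 18 and 20 in mutant. The traces came from both clusters, among them KRT9 (0 and 0 against 8 and 5), KRT75 (3 and 0 against 8 and 10) and KRT78 (1 and 0 against 6 and 6), which were chosen after their values were seen. All other protein-coding genes below the filter, 5256 in number, also had more counts in mutant libraries: they summed to 5488 and 4628 in wild type and 8839 and 8923 in mutant, a mean per gene of 1.04 and 0.88 against 1.68 and 1.7. The mean per keratin was 0.18 and 0.12 against 1.08 in both mutant libraries. The difference between these 2 sets of genes was not tested.

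**Figure D4:**
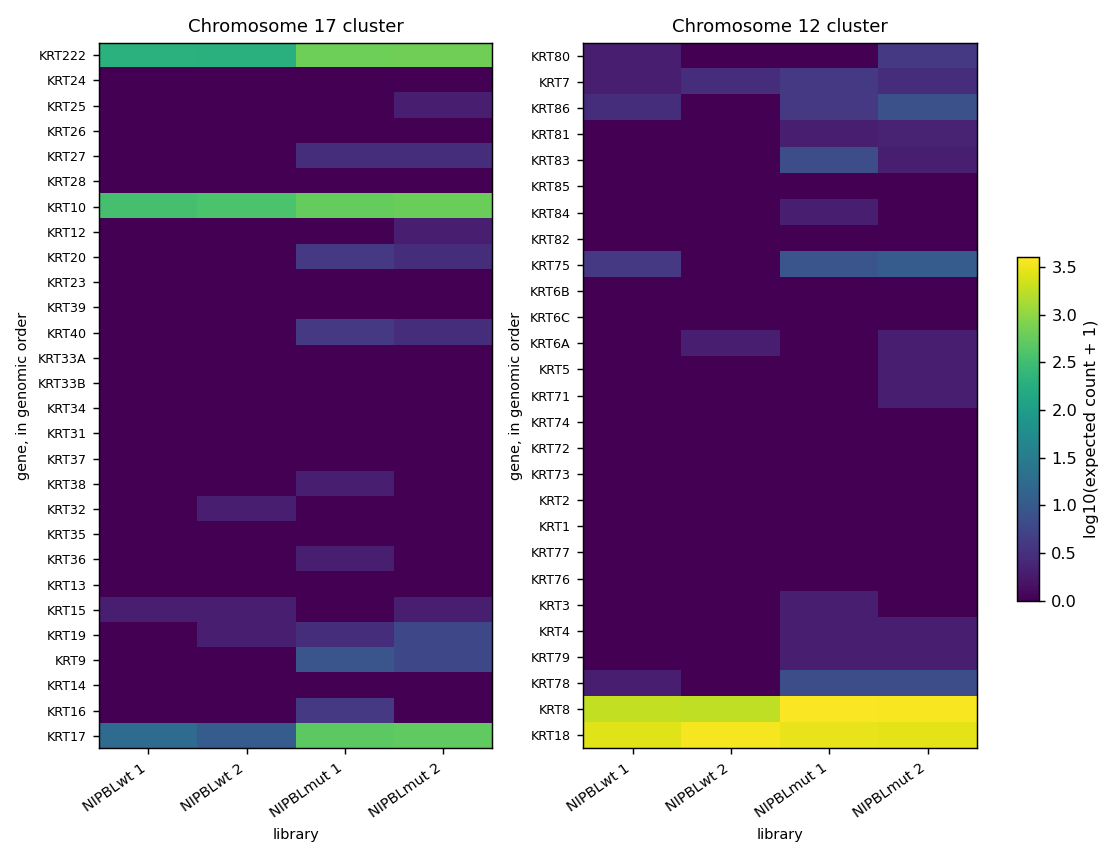
Expected counts of all 55 protein-coding keratin genes, as log10(count + 1), in the 4 libraries (columns), with genes in genomic order down each cluster. KRT222, KRT10 and KRT17 stand out on chromosome 17 and KRT8 and KRT18 on chromosome 12, and genes between them held 10 counts or fewer.

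The nearest neighbours of KRT17 were at trace level or not called. The adjacent keratin pseudogene KRT42P had 1 and 0 counts in wild type and 5 and 2 in mutant. The nearest tested protein-coding gene to the left was TMEM99, 783 kb away, with a log2 fold change of 0.15 (edgeR adjusted p = 0.527). To the right was the translation initiation factor EIF1, 64 kb away, with 0.99 (SE 0.29, adjusted p = 0.0996). TMEM99 overlaps KRT10 on the opposite strand. Within 1 Mb of the type I cluster, 3 of 57 tested non-keratin genes were called, all higher (5.26%, against 5.81% of all tested genes). They were HAP1 (0.91), which binds huntingtin, the transcription factor STAT5B (0.70), and CAVIN1 (1.0), a coat protein of caveolae. The median log2 fold change of these 57 was 0.32. HAP1, STAT5B and CAVIN1 were not called without mutant replicate 1 or without replicate 2 (adjusted p from 0.0539 to 0.37), and they were named after their values were seen.

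Around the type II cluster 2 of 37 tested non-keratin genes were called (5.41%), with a median of 0.08. The sodium channel SCN8A was higher (0.86), named after its values were seen, but had 0.48 with effective length offsets (adjusted p = 0.167) and 0.46 on log2(TPM + 1), and EIF4B, a translation initiation factor next to KRT18 at 53.3 kb, was lower by a log2 fold change of -0.80. Neither was called without mutant replicate 1 or without replicate 2 (adjusted p from 0.186 to 0.305). The neighbour on the other side, ATG101, an autophagy gene, had 0.17 (adjusted p = 0.597).

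Genes that work with keratins were read from lists, and their counts stand beside the 5.81% called and the median of -0.01 over all tested genes. Desmosomes anchor keratin filaments to cell contacts. Of 15 listed desmosome genes 10 were tested, 2 were called higher and none lower (median 0.16). The desmosomal cadherins DSG3 and DSC1, which belong to stratified epithelium, had 1 and 1 against 40 and 32 counts, and 2 and 1 against 27 and 23.1 counts. All these levels were below 0.2 TPM. Both genes passed the low-count filter only through the mutant libraries, so a gene that entered this way had to be higher there, and their calls and the count of 2 support nothing further. The other tested desmosome genes were not called. Desmoplakin (DSP), which ties keratins to the plaque, had -0.25, DSG2 0.32, DSC2 0.15, DSC3 0.17 and PERP -0.23. Plakophilin 2 (PKP2) had -0.36, PKP4 -0.42 and plakoglobin (JUP) 0.58. These uncalled genes were named after their values were seen. At an unadjusted edgeR p under 0.05, 3 listed genes were higher, DSG3 and DSC1 among them, and 2 lower.

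Hemidesmosomes and plakin linkers join keratins to the matrix and to other filaments. Of 10 listed genes 9 were tested and 2 were called higher, none lower (median -0.15). Periplakin (PPL), a keratin-binding plakin, rose from 3.67 ± 0.924 to 11.5 ± 0.672 CPM (SD, n = 2 each), a log2 fold change of 1.65 (SE 0.23, edgeR adjusted p = 0.032). COL17A1, a hemidesmosome collagen of basal cells, had 6 and 3 against 35 and 36 counts. It too passed the filter only through the mutant libraries, and no weight is put on its call. Plectin (PLEC), named after its values were seen, had -0.37 and was not called (edgeR adjusted p = 0.102).

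Of 20 genes of the simple epithelial cell surface 17 were tested, 4 were called higher and none lower (23.5%), with a median of 1.18. RAB25, a small GTPase of epithelial membrane traffic, had 3 and 3 counts in wild type and 47 and 39 in mutant, and it passed the filter only through the mutant libraries, so no weight is put on its call. MAL2, a protein of apical transport, rose from 0.947 ± 0.393 to 6.36 ± 0.630 CPM (2.74, SE 0.34, adjusted p = 0.0289). The tight junction gene CLDN1 (1.95) and the adhesion gene EPCAM (1.18) were also called, and were named after their values were seen. Leaving out mutant replicate 1 (edgeR adjusted p = 0.0914) or 2 (0.221) ended the EPCAM call, and leaving out replicate 2 ended that of CLDN1 (0.0618). E-cadherin (CDH1), also named after its values were seen, had 3.17 and 1.12 TPM against 6.14 and 4.18 TPM and was not called (1.18, adjusted p = 0.118). ESRP2, an epithelial splicing factor, had -0.70 (adjusted p = 0.0779), the tight junction genes MARVELD2 and OCLN had -0.75 and -0.16, and the polarity gene CRB3 had -0.13, none of them called. These 4 were named after their values were seen, and 13 of the 17 had a positive log2 fold change. CLDN3 (5 and 5 counts in wild type), ST14 (8 and 2), PRSS8 (12 and 1) and MUC1 (9 and 7) entered as RAB25 did. Their wild-type counts alone did not meet the low-count filter, and they were named after their values were seen. The median of 1.18 and the 13 positive values are therefore partly set by the filter. Of the 17 tested genes 8, RAB25 among them, had a wild-type mean below 1 CPM, a range in which all tested coding genes had the median of 1.12 given above.

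**Figure D5:**
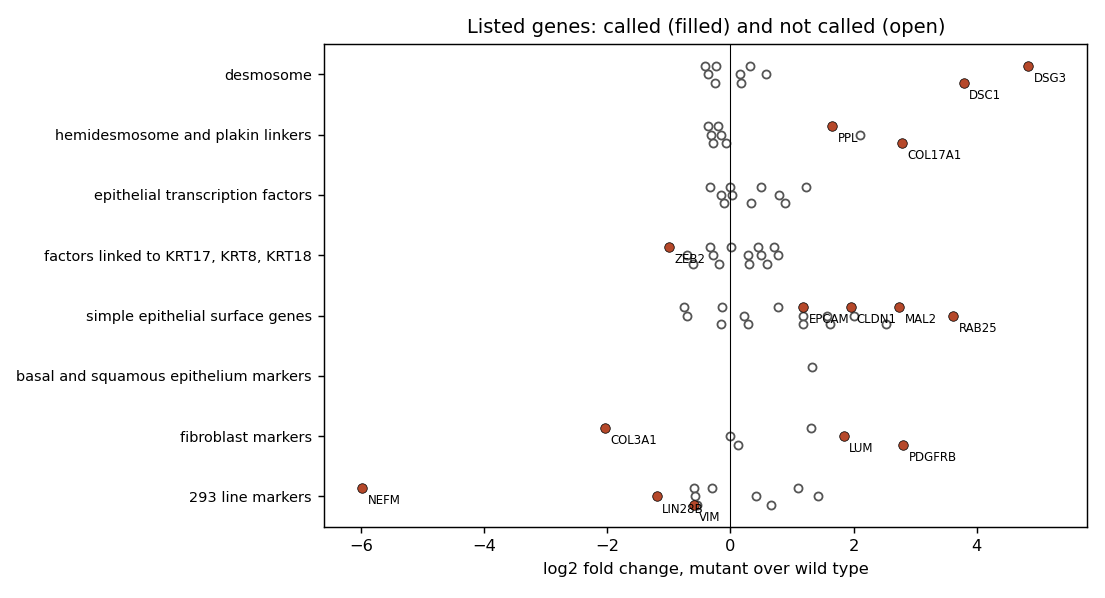
Log2 fold change of mutant over wild type for each tested gene of the lists, 1 row per list, leaving out the proteins that bind or modify keratins. Filled points are genes called by edgeR and named, open points are genes not called. Called genes lie to the right for the desmosome, hemidesmosome and simple epithelial surface lists, with a list median of 0.16, -0.15 and 1.18. Of these called genes DSG3, DSC1, COL17A1 and RAB25 passed the low-count filter only through the mutant libraries, so nothing is read from their side.

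No epithelial transcription factor was called by edgeR among 10 tested of 17 listed (median 0.18), while 2 had an unadjusted p under 0.05, both higher, and DESeq2 called 1. CEBPB had 1.22 (edgeR adjusted p = 0.0654) and OVOL2 0.88 (0.15). TP63, the master factor of stratified epithelium, had 1 and 0 counts in wild type and 5 and 5 in mutant, and GRHL2, an activator of epithelial genes, had 4 and 2 against 1 and 1. TP63 and GRHL2 were named after their values were seen. Of 15 factors linked to transcription of KRT17, KRT8 or KRT18 in other systems 14 were tested and 1 was called, lower. The list median was 0.15, and 8 of the 14 had a positive log2 fold change. ZEB2, a repressor of epithelial genes, fell from 19.0 ± 0.482 to 9.50 ± 0.627 CPM (SD, n = 2 each), a log2 fold change of -1.0 (SE 0.14, adjusted p = 0.0312). It was not called without mutant replicate 1 (0.165) or replicate 2 (0.116). On the same list ZEB1 had -0.29, SNAI1 0.77 and SNAI2 0.60, none of them called. The hedgehog factors GLI1, GLI2 and GLI3 had 0.30, -0.70 and 0.50 and were not called. All of these other than ZEB2 were named after their values were seen.

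Of 21 proteins that bind, modify or cleave keratins all were tested, and none was called higher (median -0.12). SFN, the 14-3-3 protein known to bind KRT17, had 0.40 and 0.30 TPM in wild type and 0.59 and 0.38 TPM in mutant, and was named after its values were seen.

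Markers of other cell types were read beside KRT17. Of 20 genes of basal and squamous epithelium only S100A2 passed the filter (1.32, edgeR adjusted p = 0.072), and 10 were at 0 in all 4 libraries, among them KRT14, KRT1, KRT6B and FLG, named after their values were seen. KRT5, the usual basal keratin, had 0 counts in 3 libraries and 1 in mutant replicate 2. The list summed to 1.26 and 1.05 TPM in wild type and 3.38 and 4.2 TPM in mutant, most of it S100A2. KRT17 is not on this list. Of 10 fibroblast markers 6 were tested. LUM (1.84, adjusted p = 0.0354) and PDGFRB (2.81, 0.037) were higher and COL3A1 (-2.04, 0.0452) lower, and FAP was at 0 throughout. Over all tested genes 5.81% were called. PDGFRB had 27 and 10 counts in wild type and 146 in both mutant libraries. Like KRT17, it passed the low-count filter only through the mutant libraries, so no weight is put on its call. The 10 fibroblast markers summed to 8.65 and 6.90 TPM against 13.3 and 13.2 TPM. LUM was not called without mutant replicate 1 (0.0741) or replicate 2 (0.0755), nor COL3A1 without mutant replicate 1 (0.0909). The part of these markers in the difference of KRT17 was not tested.

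The genes most like KRT17 were sought by the distance between log2 CPM profiles, each centred on its own mean, over the 4 libraries. Among 11191 protein-coding genes of at least 5 CPM on average, the nearest were NALCN, a sodium leak channel (distance 0.35), HAS2, a hyaluronan synthase (0.44), MACC1 (0.54), NELL1, a secreted protein (0.67), and ASTN1, a neuronal adhesion protein (0.76). NALCN had 17 and 10 counts in wild type, the same whole numbers as KRT17, and 393 and 410 in mutant. HAS2 had 93 and 39 against 2088 and 1904. With 4 libraries such a distance mostly ranks genes by the size of the same difference. These 5 genes lie on chromosomes 13, 8, 7, 11 and 1.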

How the data were processed

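Per the file headers, the authors deposited 1 RSEM table per library with expected counts, TPM, FPKM and lengths for 58174 genes, of which 57836 matched GENCODE 29. The submitters' processing notes name hg38, the aligner STAR (2.7.3a) and RSEM (1.3.1). Annotation release and strand setting: not given in the sources used here. The deposited expected counts were rounded, and genotypes were compared by edgeR (4.0.16, under R 4.3.3; filterByExpr, TMM scaling, robust quasi-likelihood test of genotype, Benjamini-Hochberg adjustment over 18984 genes, called under 0.05). CPM are TMM-scaled. Per the labels, samples were grouped by genotype, 2 libraries each. The deposited TPM values served for levels between genes and, as log2(TPM + 1) and log2(TPM + 0.1), in limma 3.58.1. The deposited FPKM values were not used. Other fits used DESeq2 1.42.0, other scalings and filters, effective length offsets, a replicate block, added pseudogene rows, and each library left out. The fit was tested on simulated data of this design, where false calls exceeded the adjusted threshold in most draws. Shared 66-base windows were counted over GENCODE 29 transcripts in the annotated direction.

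The members and the gene lists were chosen with earlier results of these data known. Named genes were the 10 members, other tested keratins, keratin pseudogenes above 1 TPM, tested neighbours, the 5 genes nearest to KRT17 and, per list, up to 2 called genes in each direction or the 2 of smallest p. SFN, GLI1 and others named outside this rule are marked. Of the proteins that bind or modify keratins, 1 result is not reported here.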

Additional observations from a re-analysis of the deposited data

How the results depend on the processing

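KRT17, KRT8 and KRT10 kept their direction in every fit run. KRT17 ranged from 3.0 on log2(TPM + 1) to 5.22 with total count scaling, and from 4.75 to 5.44 when 1 library was left out. KRT8 ranged from 0.75 to 1.09, and from 0.78 to 0.87 with a library left out, where it was not called when mutant replicate 1 or mutant replicate 2 was left out. The calls of these chosen genes are given only to show how they move with the setting. KRT10 was called on log2(TPM + 1) (0.72), on log2(TPM + 0.1) (0.75) and with total count scaling (0.72). It lay between 0.42 and 0.66 with a library left out. KRT18 ranged from -0.5 without wild-type replicate 1 to 0.02, the opposite sign, without wild-type replicate 2. Total counts moved the median of all tested genes to 0.17, log2(TPM + 1) to 0.12 and log2(TPM + 0.1) to 0.18. The cause of these differences was not tested.

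In the main fit the listed genes called higher included DSG3, DSC1, COL17A1, RAB25 and PDGFRB. These passed the low-count filter only through the mutant libraries, so nothing is read from the number of listed genes called higher. Over all tested genes, higher genes numbered 704 (3.71%), and 1294 with DESeq2, 1132 with no filter, 1112 with total counts. Lower genes numbered 399, and 1206 with DESeq2, 786 with no filter, 119 on log2(TPM + 1) and 110 on log2(TPM + 0.1). Leaving out a library gave 335 to 5909 higher and 64 to 5931 lower, since the spread then came from 1 pair alone and the lone library is assumed to vary like that pair. Of the listed genes 10 were higher, and 20 with DESeq2, 18 with no filter and 8 to 38 with a library left out. Of the same genes 6 were lower, and 11 with DESeq2, 2 on each TPM scale and 2 to 38 with a library left out.

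The replicate block, which uses the shared replicate numbers, gave 1470 higher and 809 lower genes, and 21 of the listed genes higher. The numbers are not stated to pair samples. The replicate differences of the genotypes correlated at -0.059 across genes. With the block KRT17 had 5.07, KRT8 0.83, KRT10 0.55 and KRT18 -0.23, with the same calls as without it, and VIM was not called (adjusted p = 0.0547).

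KRT17 rests on 17 and 10 counts in wild type, and the 6 trace genes on at most 6.8 counts in any library. The limma fits on TPM did not call DSG3 on log2(TPM + 1), nor DSC1, COL17A1, ZEB2, COL3A1, VIM, EIF4B, STAT5B or SCN8A on either scale. Total count scaling did not call VIM (adjusted p = 0.0554), EIF4B (0.0571) or COL3A1 (0.0596). Effective length offsets did not call COL17A1 (0.0867), STAT5B (0.0531) or SCN8A (0.167). On log2(TPM + 0.1), CLDN1 and HAP1 were not called (0.0531 each). DSG3 and DSC1 were not tested under the stricter filter.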
